A study of Equus caballus with 13 samples.

Results

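The KLF (Krüppel-like factor) genes encode transcription factors that bind GC-rich and CACCC-containing DNA through C2H2 zinc fingers at the C-terminal end of the protein. The members described here are KLF2, KLF3, KLF4, KLF5, KLF6, KLF7, KLF9, KLF10, KLF11 and KLF13, chosen by name. All 10 were listed in both deposited tables, among 11331 genes listed in at least one table. The cells were chondrocytes, the cells that make and maintain cartilage, isolated from wild-type horses (Equus caballus). They spent 2 days in culture before a 4 h exposure to 4-thiouridine (4sU), a form of uridine that enters newly made transcripts and marks them apart from the older copies of a gene. Samples came from 5 old females, 5 young females and 3 young males, with no age in years in the labels. All 3 groups were labelled with 4sU and handled alike, per the labels, and freshly isolated cartilage and unlabelled cells were not analysed here.

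Members of the family differ mainly outside the zinc fingers, in the part that recruits partners. KLF2, KLF4, KLF5, KLF6 and KLF7 act largely as activators, KLF3 is a repressor that recruits the CtBP corepressors, and KLF9, KLF10, KLF11 and KLF13 carry a segment that binds the corepressor Sin3A. Several are early-response genes whose messenger RNA rises within minutes to hours of a stimulus. Such messages are typically short-lived, so that their level can follow transcription closely. In cartilage, members of the family have been studied as regulators of matrix genes, of matrix-degrading enzymes and of the response to injury.

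The authors' tables gave 1 synthesis rate and 1 half-life per gene and group. The age table held old and young female values for 11056 genes, and the sex table held young male and young female values for 11249. No value per sample was given, so depth is unknown, no value below has an SD or an n, and no difference could be set against variation among the horses. Differences are described as log2 ratios to the young female value of the same table, and a gene counts as past the threshold at 2-fold, an absolute log2 ratio of at least 1. The young female samples entered both tables and are shared by both comparisons. Group and batch could not be told apart, since 12 batch labels covered 13 samples and 1 label was shared, by a young female and a young male.

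Markers of the labelled cell type were present. All 8 chondrocyte markers examined were listed, and their summed implied level (explained below) made up 2.81% of the total over the table in young female and 2.41% in old cells. In the sex table these shares were 2.81% for young female and 5.33% for young male cells. Single chondrocyte markers went both ways in old cells, where the log2 ratio of implied level to young female cells was 0.83 for COMP and 0.24 for MATN3 but −1.01 for HAPLN1, −0.97 for COL9A1, −0.63 for COL2A1, −0.49 for SOX9 and −0.48 for ACAN, with a list median of −0.48. In young male cells COL9A1 (2.00), COL2A1 (1.74), COMP (1.60) and COL11A1 (1.48) were more than 2-fold higher, and the list median was 1.21. All 5 fibroblast markers were also listed, at 0.313% in young female, 0.171% in old and 0.511% in young male cells. Single fibroblast markers differed more than this sum, in which COL3A1 and PDPN weigh most in young female and old cells. The implied level of COL1A1 had a log2 ratio to young female cells of −2.86 in old and 4.19 in young male cells, and that of COL1A2 −1.82 and 3.40. COL3A1 was at −1.12 and 1.08, and PDPN at −0.14 and −0.21. THY1 had implied levels of 3621 in young female and 1811 in old cells, and a ratio of 1.39 in young male cells. The young male half-lives of COMP, MATN3 and COL1A2 were listed at the same value, 69.3147 h. Whether that value is an upper limit of the estimate was not tested, so their level ratios in male cells may not be exact. Of 6 endothelial markers only VWF was listed, and of 7 leukocyte markers only CD14. PECAM1, CDH5 and KDR, which define endothelium, where KLF2 and KLF4 are also expressed, and PTPRC, which defines leukocytes, were not listed. The part of the fibroblast and chondrocyte marker differences in the KLF values was not tested. In such bulk samples, fewer cells of a type and less RNA per cell cannot be told apart.

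All 10 members had short half-lives in every group. In young female cells of the age table their half-lives ran from 0.694 h for KLF3 to 1.78 h for KLF5, with a median of 1.22 h. The median over all genes was 3.64 h, which is 2.97 times as long. In old cells the members ran from 0.522 h (KLF2) to 1.45 h (KLF11), with a median of 0.945 h against 3.43 h for all genes. Young male values ran from 0.0438 h (KLF2) to 2.01 h (KLF11), with a median of 1.09 h against 4.63 h for all genes. In each group all 10 members lay under the lower quartile of all genes, and between 4 and 6 of them lay in the shortest-lived 10% of genes.

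The order of the half-lives was partly kept from group to group. KLF3, KLF6, KLF9 and KLF10 were under 1 h in every group, at 0.694, 0.901, 0.951 and 0.988 h in young female cells of the age table. KLF2, KLF11, KLF13, KLF7 and KLF4 were close together there, between 1.20 and 1.35 h, and no spread is available that could separate them. Over the 10 members the Spearman correlation of half-lives was 0.66 between young female and old cells and 0.72 between young female and young male cells. Between old and young male cells, whose values come from different tables and share no sample, it was 0.93. These correlations describe 10 genes of one family and carry no test.

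The estimates for young female cells can be compared between the tables, which share those libraries. Half-lives of 9 of the 10 members differed by less than 0.05 log2 units. KLF11 was the exception, at 1.25 h in the age table and 1.41 h in the sex table (log2 difference 0.18). KLF2 was estimated at 1.20 and 1.18 h. Over the 9501 genes with half-lives of 1 to 24 h, 95% differed by less than 0.15 after removal of the median difference. Over the 2573 genes in the half-life range of the members, that limit was 0.26. This comparison holds none of the variation between animals.

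**Figure D1:**
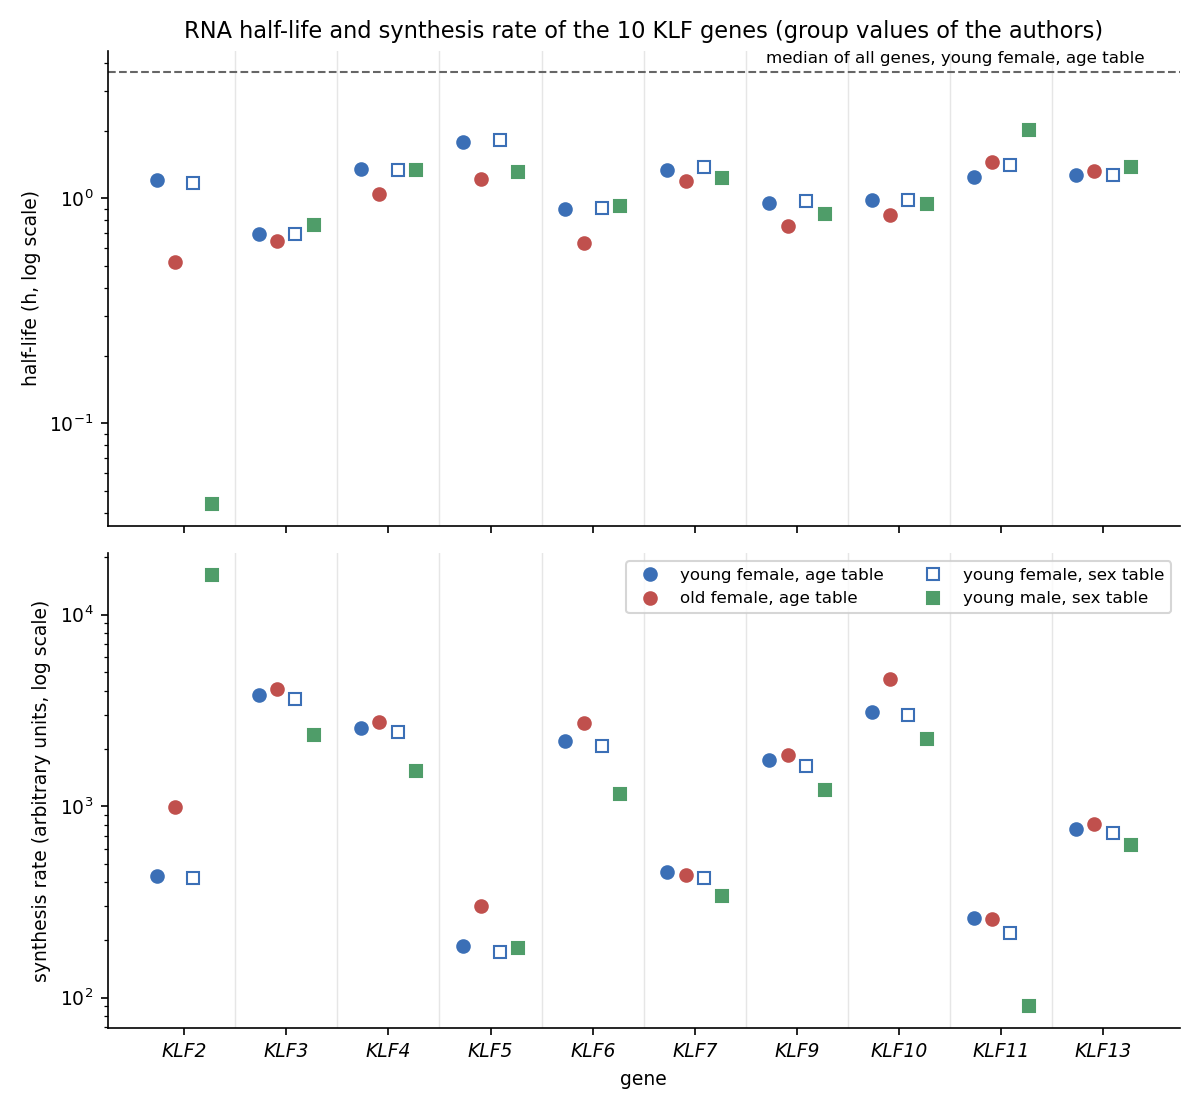
Half-life in hours (upper panel, log scale) and synthesis rate in arbitrary units (lower panel, log scale) of the 10 KLF genes, one point per group value of the authors. Circles are from the age table and squares from the sex table, and the dashed line is the median half-life of all genes in young female cells (3.64 h). All points lie below that line, and the young male value of KLF2 (0.0438 h) stands far below the rest.

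Synthesis rates are in arbitrary units, and whether they are scaled by transcript length is not given in the sources used here, so the rates of single genes are compared within a gene only. The marker sums above, the level medians of genes with very short half-lives and the profile distance at the end combine genes and carry that limit. Multiplying a synthesis rate by the half-life and dividing by ln 2 gives the implied steady-state level, if the amount of each RNA held steady while 4sU was present. The log2 ratios of synthesis rate and half-life add up to that of the implied level. Between the tables the young female synthesis rate of KLF11 was 259 and 218, against the direction of its half-life. Its implied levels, 466 and 445, differed by no more than those of the other members, all of which were lower in the sex table by a log2 difference of −0.07.

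The comparison of old with young female cells asked how age affects RNA kinetics. Half-lives of 8 of the 10 members were shorter in old cells and 2 were longer, with a median log2 ratio of −0.28. Over all genes the median was −0.08 and 36.5% of genes were longer. Synthesis rates were higher for 8 members and lower for 2, with a median of 0.11 against 0.08 for all genes, of which 60.2% were higher. Implied levels were higher for 5 and lower for 5, all with absolute log2 ratios under 0.5, as were 84.4% of all genes. Of all genes 50.7% had a higher implied level. KLF2 was the 1 member past the threshold, downward in half-life and upward in synthesis rate. Of all genes 2.06% were past it downward in half-life, 3.53% in either direction. In synthesis rate 4.59% were past it upward and 7.52% in either direction. For implied level 0 members passed, against 4.12% of genes. At a lower threshold of 0.5, 3 members passed downward in half-life, 3 passed upward in synthesis rate and 0 passed in level, where 13.4%, 23% and 15.6% of all genes passed in either direction.

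KLF2 is known for its part in the response of endothelium to blood flow and in T cell quiescence. Its half-life was 1.20 h in young female cells and 0.522 h in old cells (log2 ratio −1.20), lower than the ratio of all but 1.55% of genes. The synthesis rate was 433 in young female and 991 in old cells (log2 ratio 1.20). The 2 ratios cancelled, and the implied level was 750.0 in young female and 746 in old cells (log2 ratio −0.0079). Estimates of rate and half-life shift against each other, as described with the signs of the ratios below. The 2 ratios of KLF2 are therefore not 2 separate observations. Under exponential decay a half-life of 1.20 h leaves 9.96% of the pre-existing copies after 4 h and one of 0.522 h leaves 0.493%, shares calculated from the half-lives and not measured.

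Among the other activators, KLF5, which is linked to proliferation in epithelium and smooth muscle, had half-lives of 1.78 h in young female and 1.22 h in old cells (log2 ratio −0.54). Its synthesis rate was 185 in young female and 302 in old cells (0.71), and its implied level ratio was 0.17. KLF6, an early-response factor induced on injury in several tissues, had half-lives of 0.901 h in young female and 0.634 h in old cells (−0.51). With synthesis rates of 2183 and 2707 (0.31), its implied level ratio was −0.20. KLF4, one of the factors used to reprogram cells to pluripotency, had half-lives of 1.35 h in young female and 1.05 h in old cells (−0.36). Its synthesis rates were 2545 and 2764 (0.12), which left the implied level lower in old cells (−0.24). KLF7, best known from neurons, had half-lives of 1.34 h in young female and 1.19 h in old cells (−0.17) and synthesis rates of 453 and 438 (−0.05), and its implied level ratio was −0.23. A shorter half-life was the common direction in this comparison, since only 36.5% of all genes and 29.2% of the short-lived genes described below were longer, so the sign alone sets none of these genes apart.

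Of KLF3 and the Sin3A-binding members, KLF11 and KLF13 had longer half-lives in old cells, and KLF3, KLF9 and KLF10 had shorter ones. KLF3 had half-lives of 0.694 h in young female and 0.648 h in old cells (log2 ratio −0.10), and its implied levels of 3832 and 3839 were nearly the same. KLF9, which is induced by glucocorticoid and thyroid hormone, had half-lives of 0.951 h in young female and 0.751 h in old cells (−0.34). Its synthesis rates were 1735 and 1853 (0.10), and its implied level ratio of −0.25 was the lowest of the family. KLF10 and KLF11 are early genes of TGF-beta signalling. KLF10 had the highest implied level ratio of the family (0.34), with synthesis rates of 3121 in young female and 4611 in old cells (0.56) and half-lives of 0.988 and 0.844 h (−0.23). KLF11 had the longest half-life of the family in old cells, 1.45 h against 1.25 h in young female cells (0.21). That ratio was 0.034 when the young female value of the sex table was used. KLF13, studied as a regulator of chemokine genes in T cells, had half-lives of 1.27 h in young female and 1.33 h in old cells (0.06) and an implied level ratio of 0.15.

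**Figure D2:**
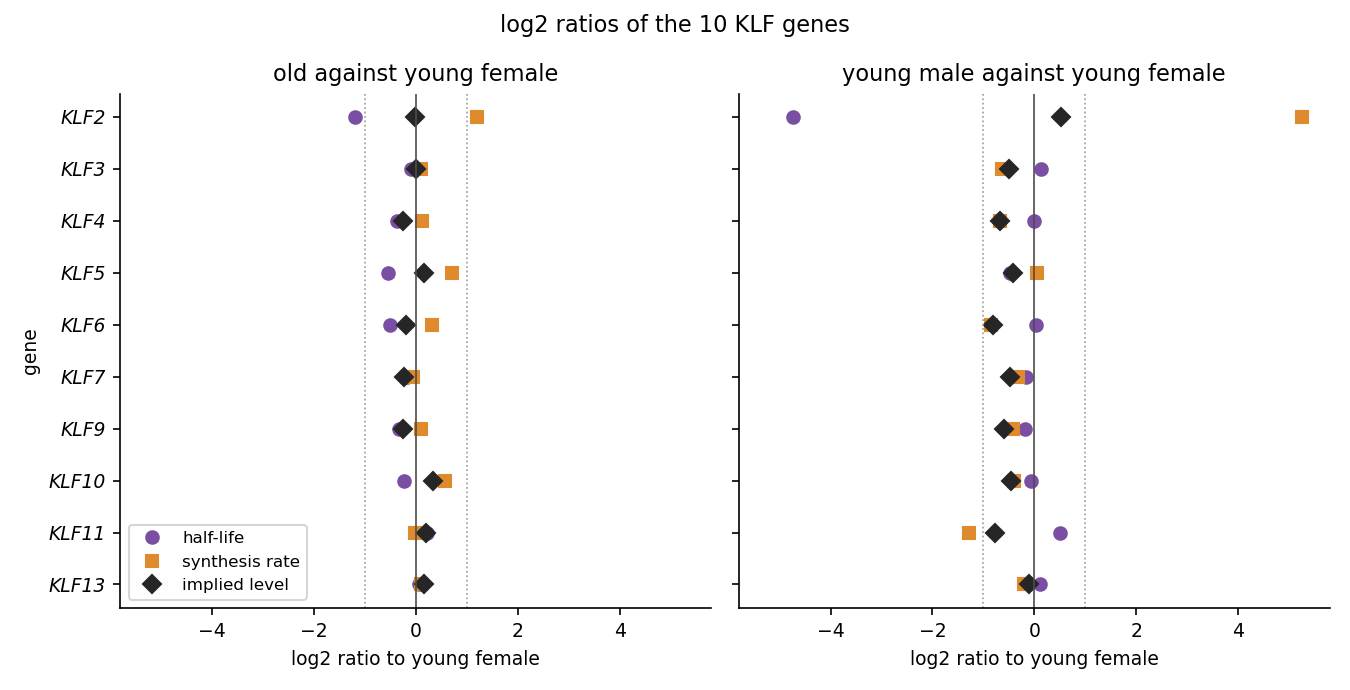
The log2 ratio to young female cells of half-life (circles), synthesis rate (squares) and implied level (diamonds) for each KLF gene, in old cells (left) and young male cells (right). Dotted lines mark 2-fold. In old cells KLF2 alone passes 2-fold, and in young male cells KLF2 passes it in half-life and synthesis rate and KLF11 in synthesis rate.

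The share of shorter half-lives among the members can be set beside that of other short-lived genes. For this, the 10974 genes in both tables were ordered by the half-life in the group left out of the ratio, here young male cells. In the shortest-lived 2 of 10 equal bins (2195 genes, up to 1.74 h), which held 9 of the 10 members, the median log2 half-life ratio of old to young female cells was −0.12 and 29.2% of genes were longer. In these bins 5.51% of genes were past the threshold downward in half-life and 7.7% upward in synthesis rate. After centring within bins the family median was −0.14, with 7 members shorter and 3 longer. In synthesis rate 68.5% of the genes in these bins were higher, beside 8 of the 10 members. The family median of synthesis rate was −0.02 after centring, with 4 higher and 6 lower in place of 8 and 2. KLF2 stayed past the threshold in both quantities (−1.06 and 1.00).

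The comparison of young male with young female cells asked how sex affects RNA kinetics. Implied levels were lower in male cells for 9 of the 10 members, with a median log2 ratio of −0.49, while over all genes the median was 0.01 and 50.5% were higher. None of the 10 passed the threshold in level, against 4.61% of all genes. Half-lives were longer for 4 members and shorter for 6, counting KLF4, whose log2 ratio was only −9.8e-05 (median −0.03), and synthesis rates were higher for 2 and lower for 8 (median −0.41). All genes shifted in this table, by a median of 0.27 in half-life and −0.28 in synthesis rate. Half-lives were longer for 77.3% of all genes and for 54.1% of the short-lived genes described below, and synthesis rates were higher for 28.9% and 26.7%, a share near that of the members. Relative to these shifts, half-lives of 1 member were longer and 9 shorter (median −0.30), and synthesis rates of 3 were higher and 7 lower (median −0.13). Relative to genes of like half-life, by centring within the bins described below, half-lives of 5 were longer and 5 shorter (median −0.01), and synthesis rates of 4 were higher and 6 lower (median −0.09).

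Past the threshold were KLF2, downward in half-life and upward in synthesis rate, and KLF11, downward in synthesis rate. Of all genes 1.96% were past it downward in half-life and 7.58% in either direction. In synthesis rate 3.78% were past it upward, 8.37% downward and 12.2% in either direction. Among the shortest-lived genes described below, 6.92% passed downward in half-life, and in synthesis rate 7.33% passed upward and 12.5% downward. The ratio of KLF11 came to −0.999 after centring on the median of all genes and to −0.88 within half-life bins, both short of the threshold. At the lower threshold of 0.5, 2 members passed in half-life, 5 in synthesis rate and 5 in level, where 31.8%, 41.1% and 25% of all genes passed.

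KLF2 stood apart from the other members in male cells. Its listed half-life was 1.18 h in young female and 0.0438 h, or 2.63 min, in young male cells (log2 ratio −4.74). The synthesis rate was 422 in young female cells and 16195 in young male cells (5.26). Its implied level was 716 in young female cells and 1024 in young male cells (0.52), the 1 member with a higher level in male cells. At a half-life of 0.0438 h the share of pre-existing copies left after 4 h would be 3.44e-26%, against 9.45% at the young female value, if decay is exponential. These shares are calculated from the half-lives and were not measured. The table gives 1 value for the 3 male samples, so whether a single library set this estimate was not tested. Such values were listed for other genes and groups too. In old cells 129 genes (1.17%) had half-lives under 0.1 h, and 49 were under 0.1 h there and at least 1 h in young female cells of the same table. In the reverse direction, 19 genes of the sex table were under 0.1 h in young female and at least 1 h in male cells. In male cells 128 genes (1.14%) had half-lives under 0.1 h, and 59 of the 11249 genes (0.524%) were under 0.1 h in male cells and at least 1 h in young female cells. All 59 had a synthesis rate at least 2-fold higher in male cells, with a median log2 ratio of 4.66. In 55 of them, KLF2 included, the implied level was within 2-fold. For those a higher rate follows from the selection on half-life, since the ratios of rate and half-life add up to that of level. Level ratios of the 59 had a median of −0.40 and an interquartile range of −0.68 to −0.13, and KLF2 lay above that range. Genes with such estimates had low listed levels. The 59 had a median implied level of 451 in young female cells, against 1505 over all genes and 716 for KLF2. These values compare different genes, so the limit on transcript length given above applies to them.

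KLF11 had the lowest synthesis rate ratio of the family. Its half-life was 1.41 h in young female and 2.01 h in young male cells (log2 ratio 0.51), the longest of the family in male cells. The synthesis rate was 218 in young female cells and 90.0 in young male cells (−1.28), and the implied level was 445 and 261 (−0.77). KLF10, the other TGF-beta early gene, had half-lives of 0.984 h in young female and 0.947 h in young male cells (−0.06). Its synthesis rates were 2989 and 2255 (−0.41), and its implied level ratio was −0.46.

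KLF6 and KLF4 had lower listed synthesis rates in male cells and nearly equal listed half-lives. KLF6 had half-lives of 0.908 h in young female and 0.928 h in young male cells, with synthesis rates of 2067 and 1153 (log2 ratio −0.84). Its implied level ratio of −0.81 was the lowest of the family, and 3.50% of all genes were lower. KLF4 had a half-life of 1.34 h in both groups, synthesis rates of 2437 in young female cells and 1529 in young male cells (−0.67), and the same ratio in implied level. For KLF3 the synthesis rates were 3645 in young female cells and 2344 in young male cells (−0.64) and the half-lives 0.696 and 0.765 h (0.14). KLF5 had half-lives of 1.81 h in young female and 1.31 h in young male cells (−0.47) and synthesis rates of 173 and 181 (0.06). After centring on the shift of all genes, KLF4 was at −0.27 in half-life and −0.39 in synthesis rate, KLF6 at −0.24 and −0.56, KLF3 at −0.14 and −0.36, and KLF5 at −0.75 and 0.34. Within half-life bins KLF4 was at 0.01 in half-life and −0.36 in synthesis rate, KLF6 at 0.04 and −0.53, KLF3 at 0.15 and −0.32, and KLF5 at −0.55 and 0.45. The half-life ratios of KLF4, KLF6 and KLF3 thus depend on which genes they are set against.

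KLF9 and KLF7 were lower in male cells in both quantities. KLF9 had half-lives of 0.978 h in young female and 0.856 h in young male cells (log2 ratio −0.19) and synthesis rates of 1611 and 1213 (−0.41). For KLF7 the half-lives were 1.38 h in young female and 1.24 h in young male cells (−0.16) and the synthesis rates 423 and 339 (−0.32), a ratio of 0.07 within half-life bins. KLF13 differed least in level (−0.10), and its half-lives were 1.28 h in young female and 1.38 h in young male cells.

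Lower levels in male cells were common among short-lived genes in general. Here the bins were made from old female half-lives, and the shortest-lived 2 (2195 genes, up to 1.45 h) held all 10 members. The implied level ratio of these genes had a median of −0.33 on the log2 scale, and 17.1% of these genes were higher, beside a family median of −0.49 with 1 of 10 higher. Of these genes 3.42% were past the threshold downward in level. After centring within bins the family median was −0.16, with 8 members lower and 2 higher, KLF13 (0.21) joining KLF2 (0.87) on the higher side. KLF6 and KLF11 remained the lowest, both at −0.46.

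**Figure D3:**
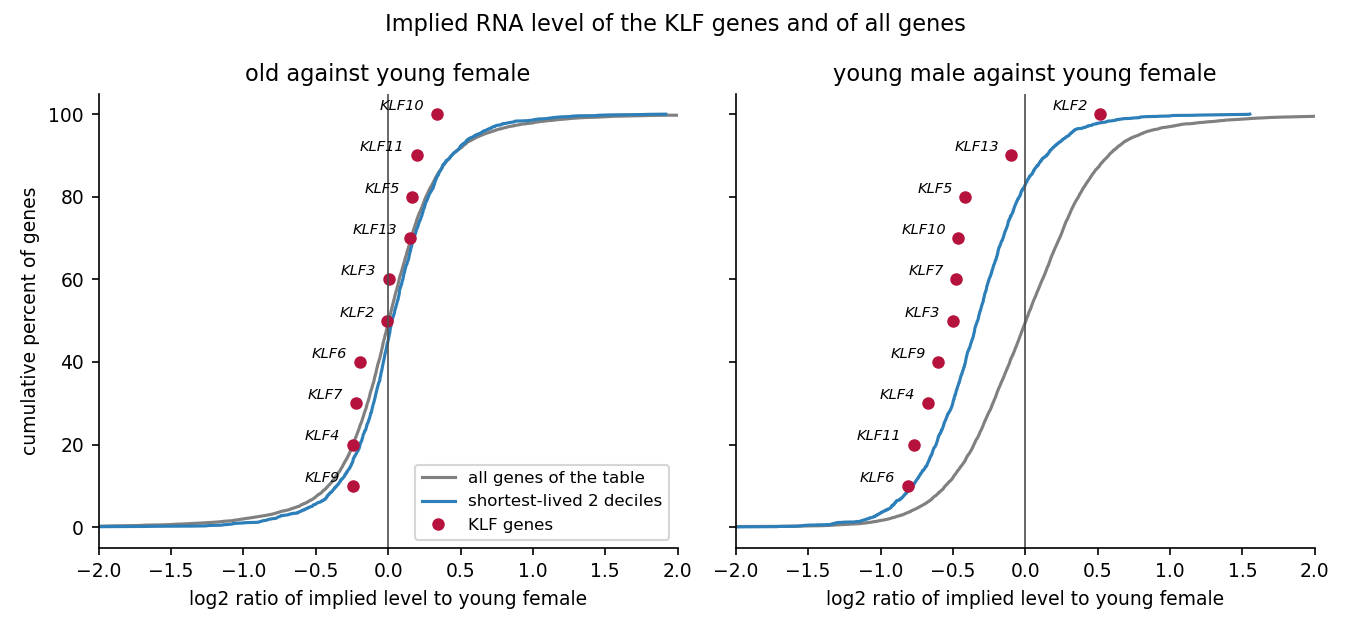
Cumulative percent of genes against the log2 ratio of implied level to young female cells, for all genes of the table (grey), for the shortest-lived 2 of 10 half-life bins (blue) and for the KLF genes (points, each named), in old cells (left) and young male cells (right). Axes end at log2 ratios of 2 in either direction, beyond which 56 genes lie on the left and 74 on the right. In male cells the short-lived genes lie left of all genes, and 9 of the 10 KLF genes lie below 0.

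The signs of the half-life and synthesis ratios can be read side by side, but the 2 estimates are not independent. Between the young female values of the age and sex tables, 95% of genes of 1 to 24 h differed by less than 0.15 in each. The median difference was removed first, and for implied level that limit was 0.00083. A shift in an estimated half-life thus came with an opposite shift in rate, so opposite signs are not 2 separate observations. In old cells 8 of the 10 members had ratios of opposite sign, 7 of them shorter-lived with a higher synthesis rate, and KLF7 and KLF13 had the same sign in both. Over all genes 70.4% had opposite signs and 46.9% were shorter-lived with a higher rate. In male cells 6 of 10 were opposite, against 76.2% of all genes. KLF7, KLF9 and KLF10 were lower in both quantities there. KLF4 was counted with the same sign, but its half-lives were equal to 3 digits and its sign turned within half-life bins.

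**Figure D4:**
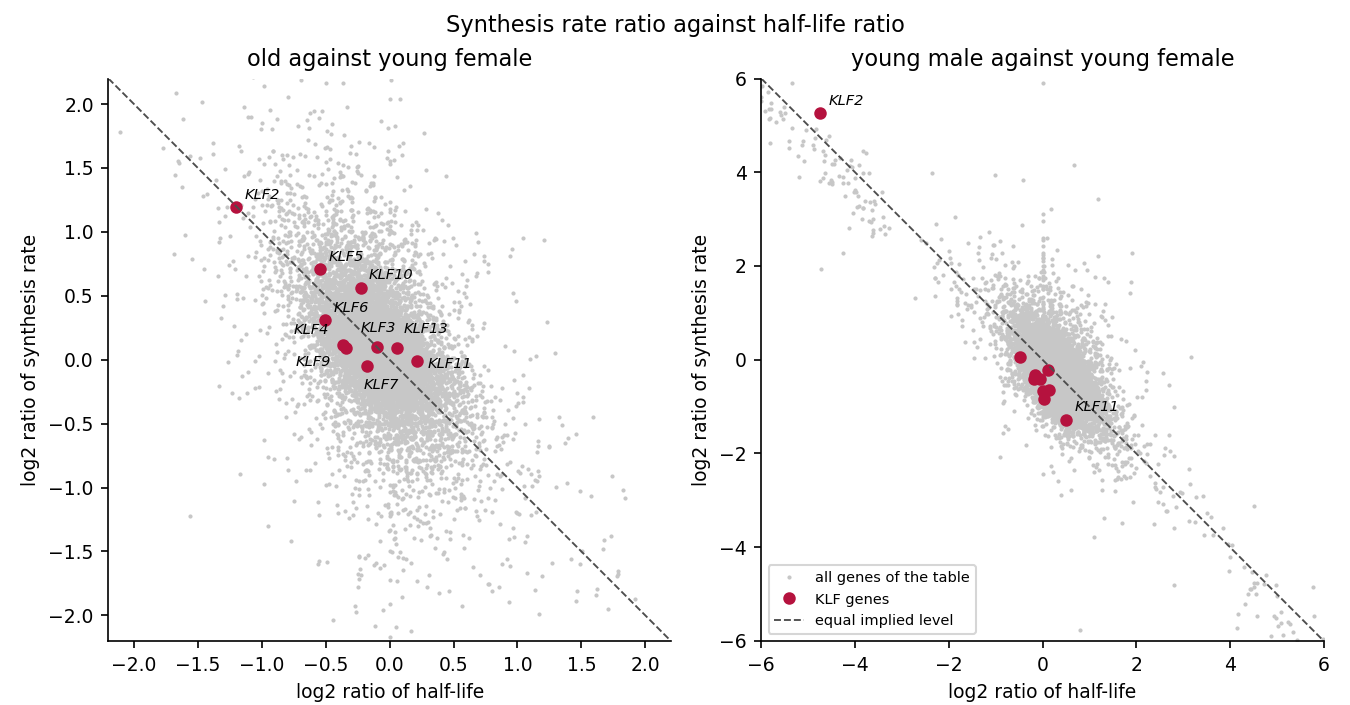
Log2 ratio of synthesis rate against log2 ratio of half-life for all genes (grey) and the KLF genes (red), in old cells (left) and young male cells (right), both relative to young female cells. On the dashed line the implied level is equal in both groups. Axes differ between panels, and 273 genes on the left and 37 on the right lie outside them. KLF2 lies on the line in old cells and above it at the far upper left in male cells.

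Other genes of the KLF and SP family, which share the zinc finger design, were listed less completely, 7 of 17. These were KLF12, KLF15, KLF16, SP1, SP2, SP3 and SP4, and their young female half-lives in the age table ran from 1.29 to 2.12 h. In old cells all 7 had a higher synthesis rate (median log2 ratio 0.15) and 5 had a shorter half-life (median −0.16), where 60.2% of all genes and 68.5% of the short-lived genes had a higher rate and 36.5% and 29.2% a longer half-life. KLF15, known as a regulator of metabolism in liver and muscle, was the 1 past the threshold, with synthesis rates of 293 in young female and 729 in old cells (1.32), as were 4.59% of all genes upward. In male cells KLF15 had the same form of estimate as KLF2, a half-life of 0.0317 h against 1.34 h in young female cells (−5.40) and a synthesis rate of 22394 against 283 (6.31). Its implied level ratio was 0.91 in male cells and 1.00 in old cells, just under the threshold. SP1, SP2, SP3 and SP4 had male half-life ratios between −0.22 and 0.15.

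Immediate-early transcription factors, another group of inducible and short-lived messages, were listed for 10 of 13. Their young female half-lives in the age table had a median of 1.32 h and ran from 0.638 to 4.16 h. Their implied levels were lower in male cells for all 10 (median log2 ratio −0.56), beside 9 of 10 KLF genes (−0.49). In old cells they were lower for 9 of 10 (median −0.38), beside 5 of 10 KLF genes (−0.0027). Implied levels were higher in old cells for 50.7% of all genes and 54.8% of the short-lived genes. In male cells they were higher for 50.5% of all genes and 17.1% of the short-lived genes, whose median was −0.33. Lower levels in male cells are therefore not particular to these 2 lists. Past the threshold in synthesis rate were FOSB (−3.30) and FOSL1 (−1.20) in old cells, and FOSB (−1.44), JUN (−1.12), ATF3 (−2.36) and MYC (−1.21) in male cells. FOSB also passed it in half-life in old cells (1.17), as 3.53% of all genes did in either direction. The listed synthesis rate of FOSB was 102 in young female and 10.4 in old cells, and its implied level 612 and 140. The depth behind these low values is unknown. In implied level FOSB (−2.12) and FOSL1 (−1.60) passed in old cells and ATF3 (−1.70) in male cells, 2 and 1 of the 10, where 4.12% and 4.61% of all genes passed in either direction. For synthesis rate 2 and 4 of the 10 passed, beside 7.52% and 12.2% of all genes. No test of the difference between the lists was made.

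Genes acting upstream of the family were examined by pathway. The ERK5 pathway, which switches on KLF2 and KLF4 through MEF2 factors, had all 7 genes listed. In old cells 0 of these passed the threshold in half-life or synthesis rate, with a median log2 synthesis ratio of −0.09. In male cells the kinase gene MAP2K5 had a longer half-life (1.44) and a lower synthesis rate (−1.08), and MAP3K2 had a lower synthesis rate (−1.05). Of 6 TGF-beta pathway genes, which lie upstream of KLF10 and KLF11, 0 passed in either comparison. The feedback inhibitor SMAD7 had the lowest half-life ratio of that list, −0.51 in old and −0.74 in male cells. Of 5 glucocorticoid-response genes 0 passed in old cells and 1 in male cells, ZBTB16, with a half-life of 0.0122 h against 1.31 h in young female cells (−6.76) and a synthesis rate ratio of 6.90. Of all genes 3.53% passed in half-life and 7.52% in synthesis rate in old cells, and 7.58% and 12.2% in male cells. At those shares a list of 5 to 7 genes would on average hold about 0 or 1 such genes. The ERK5 list held 2 of 7 in synthesis rate in male cells, beside 12.2% of all genes. No test was made, and nothing is read from these counts.

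For partners of KLF proteins the lists were described in the same way. All 11 cofactor genes, among them SIN3A, CTBP1, CTBP2, EP300 and CREBBP, were listed and 0 passed the threshold in either comparison. Implied level ratios had a median of −0.03 on the log2 scale in old and −0.14 in male cells. Of the 4 E3 ligase genes whose products mark KLF proteins for degradation, 0 passed in old cells. In male cells FBXW7 had a shorter half-life, 0.260 h against 1.23 h in young female cells (−2.24), and a higher synthesis rate (1.66), and SMURF1 had a lower synthesis rate (−1.21). Past the threshold were 3.53% of all genes in half-life and 7.52% in synthesis rate in old cells. In male cells the shares were 7.58% and 12.2%. These shares are low enough that a count of 0 of 11 or 0 of 4 says nothing particular to these lists. Of the 4 E3 ligase genes in male cells, 1 passed downward in half-life, and 1 passed upward and 1 downward in synthesis rate. No test set these counts against those shares. The implied levels of all 4 E3 ligase genes were lower in male cells, with a median of −0.44. Of these, FBXW7, SMURF1 and BTRC had old female half-lives inside the short-lived bins, where 17.1% of genes were higher and the median was −0.33.

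The genes closest to the family's median profile were found by distance over 6 values, the log2 half-life and log2 synthesis rate in the 3 groups. Among 10265 named genes in both tables the nearest 5 were BAHD1 (distance 0.25), PHF12 (0.25), ELL (0.30), TLNRD1 (0.30) and NCKAP5L (0.32). The members themselves lay farther from that profile, from 0.96 for KLF9 to 6.21 for KLF2. Nearness to it is therefore not likeness to any single member. BAHD1 had half-lives of 1.12 h in young female, 0.960 h in old and 1.03 h in young male cells, beside family medians of 1.22, 0.940 and 1.08 h taken on the log2 scale. Synthesis rates of different genes enter this distance, and a scaling by transcript length, if absent from the tables, would alter which genes come nearest.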

How the data were processed

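The labels assigned 13 samples to 3 groups, and 2 tables of RNA kinetics were used, with 0 columns of values per sample. Values in both tables are the authors' deposited group estimates, per the file headers a synthesis rate (arbitrary units here) and a half-life (taken to be in hours, as medians lay near the 4 h of labelling). The submitters' processing notes name cutadapt 4.5, STAR 2.5.3 and the build EquCab3.0; the kinetic model, annotation, filters and combination of replicates are not given in the sources used here. The group headed "Young" in the age table was read as young female, because the labels assign the young female but not the young male samples to it.

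Log2 ratios were computed within a table with Python 3.11.15 and pandas 2.3.3, without pseudocount or filter. The planned description by ratio was used, since no test was possible. Named genes were all 10 members, genes of the comparison lists past 2-fold and the 5 nearest profiles; other list genes were given by counts, medians and ranges. KLF15, SMAD7, BTRC and SP1 to SP4 statements beyond that rule, and listed markers, were added after their values were seen. The members and lists were chosen with earlier results of these data known. The ratio and centring steps were tested on simulated data. Alternatives were centring, young female values from the other table, half-lives of 1 to 24 h, a threshold of 0.5 and half-life bins. Leaving out KLF2 and the short-lived background were added after seeing the data.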

Additional observations from a re-analysis of the deposited data

How the results depend on the processing

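No paired analysis was possible because the tables hold no values per sample, and leaving out each replicate could not be run for the same reason. A shift of 0.15 or more counted as a move for a log2 value, the difference between the 2 tables' young female half-lives that 95% of genes of 1 to 24 h stayed under (0.26 in the half-life range of the members); for a count the limit was 1.5 times. Of 66 alternative medians and counts 46 stayed within these limits and 20 moved. In old cells the count past the threshold for half-life and for synthesis rate was 1; it was 0 within 1 to 24 h and without KLF2, and 3 at a threshold of 0.5. Within 1 to 24 h, where 5 members were left, the median level ratio in old cells was 0.15. In male cells the half-life median was −0.30 after centring on all genes, and its count of 1 was 0 within 1 to 24 h or without KLF2 and 2 at a threshold of 0.5. The male synthesis median was −0.13 after that centring and −0.091 within half-life bins. Its count of 2 was 1 under either centring, within 1 to 24 h or without KLF2, and 5 at a threshold of 0.5. The male level median was −0.16 within half-life bins, and its count was 5 in place of 0 at a threshold of 0.5, which 25% of all genes passed. For single members 131 of 180 alternative ratios stayed within the limit and 49 moved. Signs turned for 10 within half-life bins, 5 after centring and 4 with the other table's young female values, and 0 of these were past the threshold. The cause was not tested, except that the range and the omission of KLF2 remove members by construction. Under exponential decay half-lives under 1 h leave little pre-existing RNA after 4 h, and the depth behind them is unknown.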
